A study of Trichosurus vulpecula with 6 samples.

Results

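Single-exon copies of ribosomal protein genes were examined in RNA-sequencing of ear punch skin from the brushtail possum (Trichosurus vulpecula). A copy was any assembled transcript with exactly 1 exon whose reference gene name began with RPL or RPS and a digit. Of 274079 transcripts in 6 libraries, 2290 met this rule, and they lay at 413 loci among the 36628 loci of the whole data set. The libraries came from 3 Grey and 3 Black adult females, 1 library per possum, with no treatment. The animals were wild possums from pest control, and coat colour is the only label that separated the groups. RNA was kept in RNAlater, extracted with TRIzol and made into strand-specific libraries of poly(A)-enriched RNA, read as 120 bp single-end reads. Levels are given in TPM, the abundance of a transcript per length scaled to a fixed total per library, which is proportional to the mean depth of reads per base, so that copies of different length can be compared.

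Ribosomal proteins are the structural proteins of the ribosome, with RPS proteins in the small subunit and RPL proteins in the large subunit, and their mRNAs are among the most abundant in most cells. Their genes carry introns. Copies without introns arise when a spliced mRNA is reverse transcribed and inserted elsewhere in the genome, a process driven in mammals by the enzymes of LINE-1 elements. Such retrocopies usually arrive without a promoter, and short abundant mRNAs such as those of ribosomal proteins have left many of them. Because a young copy closely resembles its parent mRNA, a short read can match several loci equally well, and the level at each locus then depends on how the aligner and the assembler divided those reads.

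Aligned depth ranged from 4.17 to 10.2 gigabases, with Grey 1 the shallowest and Grey 3 the deepest. It was estimated in each library as the median over transcripts of coverage divided by FPKM, a level scaled to length and library depth. Markers of the tissue were present (keratinocyte markers summed to between 978 and 1693 TPM, from 2 of 8 listed genes that had a symbol). Black 1 stood apart with 3092 TPM summed over 7 skeletal muscle genes, against 4.54 to 6.82 TPM in the other 5 libraries, with no muscle gene at 0 in all libraries. Black 3 had 1336.5 TPM of 8 macrophage and dendritic cell genes, against 337 to 650 TPM elsewhere. The part of either in the values below was not tested.

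The 413 loci carried 93 names, which reduced to 73 genes once names of other species for the same gene were joined. Of 73 cytosolic ribosomal proteins listed, 66 had at least 1 single-exon copy, and the other 7 genes with a copy were paralogues (RPL22L1, RPL26L1, RPL36AL, RPL39L, RPL7L1, RPS27L and RPS4Y1). Large-subunit genes had 230 loci from 43 genes and small-subunit genes 183 loci from 30 genes. RPL36 had the most loci, 23, and 15 genes had at least 10, whereas 15 genes had a single one. The copies were spread over the genome, with 69 loci on chromosome 1, 57 on chromosome 2, 55 on chromosome 4 and 6 on chromosome X. A further 5 loci lay on scaffolds outside the assembled chromosomes, most of them assigned to X. Of all loci, 203 lay on the plus strand and 210 on the minus strand.

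Nearly all of the loci were known to the RefSeq annotation of the same assembly as short genes without a symbol. A RefSeq gene shorter than 2000 nt matched 390 loci (309 protein coding and 81 pseudogenes), and 13 loci had no RefSeq gene at all. None overlapped a RefSeq gene that bears its own symbol, and none shared an exon with an assembled multi-exon transcript of its own name, although only 14 of the 93 names had such a transcript and 9 genes had no spliced gene by symbol. Another 48 loci overlapped an exon of a multi-exon transcript on the same strand that did not bear the name. Copies annotated as protein coding had a median level of 48.9 TPM and those annotated as pseudogenes 9.31 TPM, and the protein-coding ones held 86.5% of all TPM of the copies. Most loci, 270, had no assembled multi-exon transcript across them. Another 37 lay in an intron of a transcript on the same strand and 56 in an intron of a transcript on the other strand, with median levels of 68.1 and 56.1 TPM against 35.1 TPM for the loci apart from any transcript.

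Most of the loci were assembled in every animal. Of the 413, 343 (83.1%) were present in all 6 libraries, 26 in 5, and 12 in a single library. The assembly was guided by the annotation that gave the names, so the recurrence of the same positions was not an independent result. The 70 loci missing from at least 1 library were low, with a median of 0.279 TPM and none above 45.6 TPM. Per library there were 368, 386 and 391 copies in Grey skin and 384, 386 and 375 in Black skin, lowest in the shallowest library. They were 96 to 1137 nt long (median 413 nt), and the median coverage per base ran from 102 in Grey 1 to 235 in Grey 3. Other single-exon transcripts with a reference name, 880 loci of 719 names, were present in all 6 libraries at 60.0% of loci. The median copy had 38.9 to 47.4 TPM per library and the median of these other transcripts 4.83 to 5.71 TPM. The ratio was 7.92 to 9.06 in the 6 libraries (mean 8.26). An exact paired permutation test over libraries (2-sided) gave p = 0.03125, the smallest that 6 libraries allow. That p shows only that the order held in every library, and it does not measure the spread between loci. Of 25 other genes listed as known for retrocopies, 17 had no single-exon locus of that name. The highest summed levels were those of FTH1, the ferritin heavy chain (335 to 786 TPM), and PPIA, a peptidyl-prolyl isomerase (313 to 558 TPM over 9 loci), whose ranges overlapped.

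Copies of ribosomal protein genes held a similar part of all TPM in both coat colours. The sum over all copies was 38089, 39812 and 40353 TPM in Grey 1 to 3 and 40472, 43423 and 38087 TPM in Black 1 to 3. The groups overlapped, since Black 3 was as low as Grey 1 and the highest library was Black 2. In percent of all TPM this was 3.95% ± 0.119 in Grey and 4.07% ± 0.268 in Black skin (SD, n = 3 each). The total was uneven over loci: 49 loci held 50% of it, 10 loci held 17.4%, and 57 of 413 loci had a mean under 1 TPM. 

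**Figure D1:**
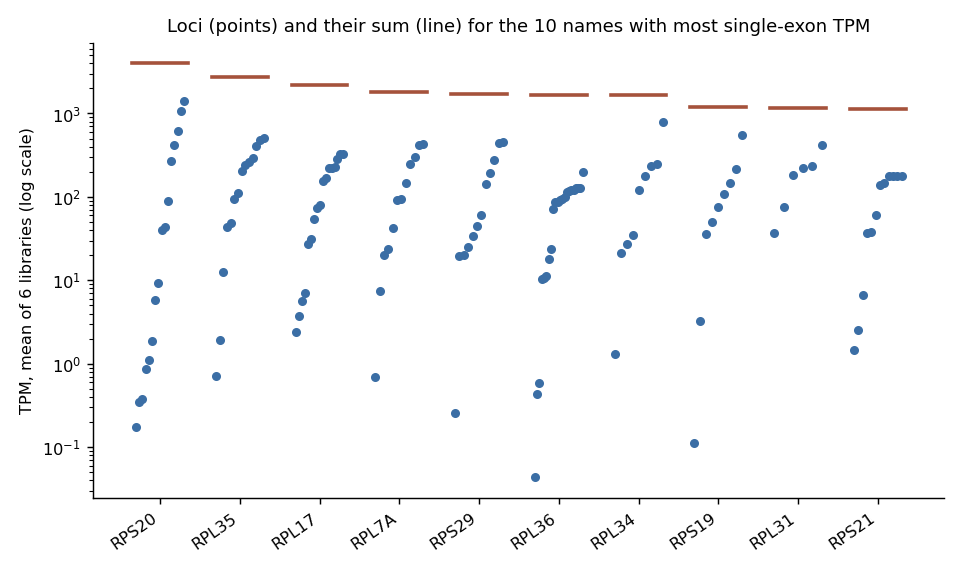
Mean TPM over 6 libraries (log axis) of each single-exon locus, as points, and of their sum, as a line, for the 10 names with the highest summed single-exon TPM. RPS20 led with 3983 TPM, of which its 3 highest loci held most, while the name RPL36 drew its 1664 TPM from 22 loci.

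RPS20, a protein of the small-subunit head, had the highest sum, 4116, 3837 and 4118 TPM in Grey and 3647, 4109 and 4072 TPM in Black skin, with the groups overlapping. Its 16 loci ranged from 0.173 to 1425 TPM. The highest of all copies was the RPS20 copy at chr8:231251787-231252149, with 1359, 1483 and 1481 TPM in Grey and 1190, 1601 and 1436 TPM in Black skin. It was followed by RPS20 at chr3:362420974-362421365 (mean 1064 TPM), RPL34 at chr5:15796618-15796957 (794 TPM, described below), RPS20 at chr1:85434340-85434731 (612 TPM) and RPL11 at chr4:148412577-148413132 (575 TPM). The remaining loci among the highest 10 were RPS19 at chr8:168090493-168090948 (548 TPM), RPL35 at chr5:204025168-204025539 (515 TPM) and chr2:6420958-6421329 (480 TPM), RPL31-PS12 at chr1:349295301-349295693 (486 TPM) and RPS29 at chr5:61897538-61897709 (453 TPM). None of the 10 passed the threshold of the limma test described below (adjusted p = 1.00 for each), which does not show that their levels were equal.

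One copy lay beside the coat colour gene itself and was named here after its values were seen. An RPS20 copy of 192 nt at chr3:100454234-100454425, inside a RefSeq protein-coding gene without a symbol at chr3:100454084-100454460, sat in an intron of the transcripts assembled across ASIP, the agouti signalling protein gene, on the same strand, upstream of the RefSeq span of ASIP at chr3:100479698-100483755. Transcripts that spanned it were assembled in 5 of 6 libraries. The copy was low, at 0.638, 0.793 and 0.703 TPM in Grey and 1.27, 0.990 and 0.865 TPM in Black skin. The groups did not overlap, on the equivalent of at most 7.73 reads per library (exact permutation test over the 20 assignments, 2-sided, p = 0.1, the smallest that 3 against 3 libraries allow). It fell under the filter of the limma test; fitted without that filter, its log2 difference was 0.25 (adjusted p = 0.85).

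The level of the copies was next set beside that of the spliced gene, which tells how much of a ribosomal protein's signal sat at intronless loci. Under the reference names alone, multi-exon transcripts were found for only 14 of the 93 names, and copies then made up 77.9%, 75.2% and 73.7% of the named TPM in Grey and 75.2%, 73.0% and 75.2% in Black skin (mean 75.6% ± 2.15 and 74.5% ± 1.25, SD, n = 3 each). Only 12 to 15 multi-exon transcripts per library bore such a name, so most spliced ribosomal protein transcripts did not enter this share. When spliced transcripts were instead taken from the RefSeq gene of each symbol, 64 genes had both kinds, and the share of copies fell to 25.9%, 25.3% and 22.5% in Grey and 22.8%, 23.4% and 23.4% in Black skin (24.6% ± 1.79 and 23.2% ± 0.314). The groups overlapped by either measure. Among the names with the highest shares, the measures differed most for RPL11, at 92.9% against 29.8% by RefSeq symbol, and less for RPS21 (97.9% against 73.2%) and RPL35 (78.4% against 72.2%).

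By RefSeq symbol the share of copies ranged from 0.0191% to 99.2% between genes, with a median of 13.3%. The mean share was over 50% for 9 of 64 genes and under 5% for 20. By mean level copies exceeded the spliced gene for 10, the 10th being RPS27L, whose copies reached 87.1% and 92.6% in Grey 1 and Black 2 and 12.2% to 16.9% in the other 4 libraries. RPS29, a small zinc-binding protein of the small subunit, was at one end. Its 12 loci summed to 1506, 1483 and 1805 TPM in Grey and 1805, 2044 and 1622 TPM in Black skin, whereas the spliced gene had 2.43 to 21.6 TPM, against a median of 1693 TPM over the spliced genes. All shares by RefSeq symbol rest on a match by symbol and span alone, which was not tested by sequence. The shares of RPS29, RPL36, RPS23, RPS21 and RPL34 are the more uncertain. Their spliced genes were low, with means of 13.3, 102, 139, 427 and 612 TPM. RPL36, a large-subunit protein, followed with 94.8% (1597 to 1745 TPM from copies, 0 to 341 TPM from the spliced gene), then RPS23, a protein of the decoding centre, with 86.6%, RPL31 with 76.9%, RPL34 with 76.2%, RPS21 with 73.2%, RPL35 with 72.2%, RPL7A with 69.1% and RPS20 with 57.0%. At the other end, copies of RPL24 made up 7.94%, those of RPL37 2.34%, those of RPS28 1.44% and those of RPS24 0.0191%. For RPL17 and RPS19 no spliced gene of that symbol was matched in the table used here.

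**Figure D2:**
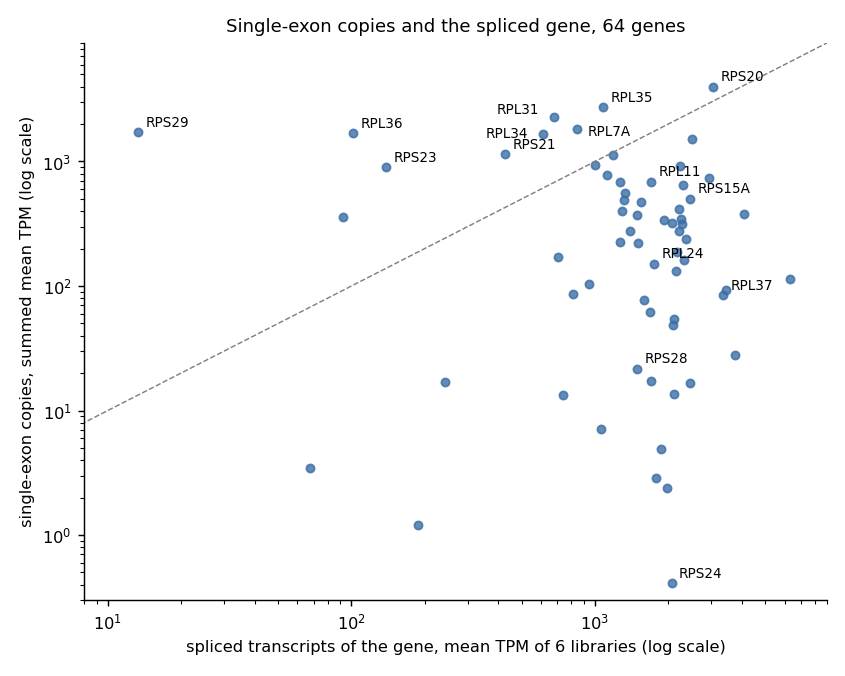
Summed mean TPM of the single-exon copies against mean TPM of the spliced transcripts for 64 genes (means of 6 libraries, both axes log, dashed line at equal levels). The 10 genes above the line include RPS29, RPL36 and RPS23, while RPS24 had copies at 0.409 TPM beside 2063 TPM of spliced transcripts.

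Few genes had a share of copies that did not overlap between the colours, and their number was near that given by the assignment of libraries alone. Of the 20 ways to assign the 6 libraries, a single one gives each order. Each Black library had a higher share than each Grey library for 3 of 64 genes (4.69%), RPL10A, RPL7 and RPS7, and a lower share for 4 (6.25%), RPS15, RPS15A, RPS27A and RPL38. The exact permutation p was 0.1 for each of these 7, the smallest possible, so no single share could pass 0.05. The difference in percentage points was -15.7 for RPS15A and between -8.00 and 2.48 for the other 6. Among the highest shares, RPS29 was at 99.3% ± 0.510 in Grey and 99.2% ± 0.126 in Black skin (exact permutation p = 0.7), RPL36 at 94.5% ± 9.43 and 95.0% ± 4.67 (p = 0.9) and RPS20 at 58.6% ± 1.46 and 55.3% ± 8.79 (p = 0.6, SD, n = 3 each).

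Single loci were then compared between Black and Grey skin with limma on log2(TPM + 1), fitted to the 18862 loci whose mean reached 1 TPM and adjusted over all of them. In bulk tissue a lower level can reflect fewer cells of a type or less RNA per cell, which cannot be told apart. Of the 413 copies, 356 passed the filter. None was higher in Black skin at adjusted p under 0.05 (0.0318% of all loci were) and 3 were lower, 0.843% against 0.0583% of all loci. At unadjusted p under 0.05, 11 were higher (3.09% against 1.33% of all loci) and 10 lower (2.81% against 0.986%). The 3 calls ended when coverage was expressed in bases per aligned megabase (limma adjusted p of 0.066 to 0.15). The median log2 difference was 0.10 over the copies and 0.04 over all loci.

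The 3 lower loci were named for RPS15A, a small-subunit protein, at 2 places and for RPL8, a protein of the large subunit near the peptidyl transferase centre. RPS15A at chr5:24038414-24038812 had 52.4, 52.9 and 55.3 TPM in Grey and 9.16, 10.6 and 10.6 TPM in Black skin (log2 difference -2.30, SE 0.14, limma adjusted p = 0.0053). The groups did not overlap, and all 3 Grey libraries sat far above all 3 Black ones. RPS15A at chr6:176963021-176963419 had 126, 126 and 136 TPM in Grey and 50.6, 55.5 and 51.2 TPM in Black skin (-1.29, SE 0.12, adjusted p = 0.036), again without overlap, but leaving out any single library ended this call (adjusted p from 0.088 to 0.13). RPL8 at chr9:16782312-16783096, a RefSeq pseudogene, had 30.0, 35.4 and 46.5 TPM in Grey and 3.09, 3.82 and 2.22 TPM in Black skin (-3.24, SE 0.24, adjusted p = 0.015). Its call was lost without Grey 2 (adjusted p = 0.059) or Black 1 (0.057).

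The RPL8 difference depended on which transcript carried the name. Coverage on the span of the locus from every transcript of its strand, in bases per aligned megabase, was 12.2, 13.7 and 19.1 in Grey and 1.22, 1.59 and 26.5 in Black skin. Black 3 was thus the highest library by this measure, although its named transcript was the lowest (log2 difference -1.93, limma adjusted p = 1.00). The RPL8 copies at chr1:563432574-563433350 and chr4:92964010-92964786 were likewise low in Black 1 and Black 2 on their spans (1.63 and 1.42, and 4.10 and 3.76) and highest in Black 3 (17.1 and 26.3).

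**Figure D3:**
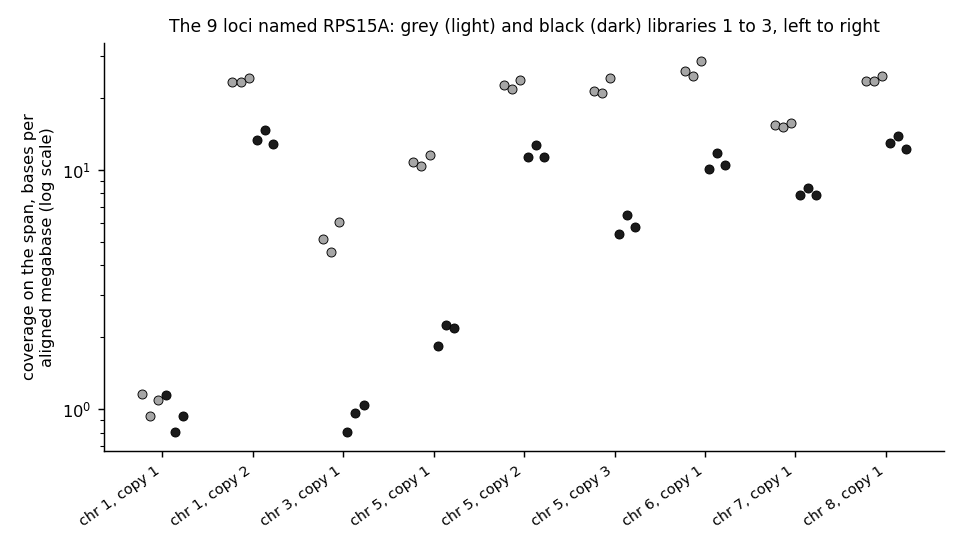
Coverage on the span of each of the 9 loci named RPS15A, in bases per aligned megabase (log axis), with 1 point per library (Grey light, Black dark). At 8 loci all Black points lie below all Grey points, and at the lowest copy on chromosome 1 the colours overlap.

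All 9 loci named RPS15A passed the filter, and 2 of them passed the test. They are given one by one because RPS15A was already known from earlier results of these data, so the pattern below is not an independent finding. By TPM, 6 of the 9 loci were lower in all 3 Black libraries, as were 2.23% of all loci. Besides the 2 called loci these were chr1:336933431-336933837 (111, 116 and 113 TPM in Grey against 65.4, 67.8 and 61.2 TPM in Black skin), chr5:70702673-70703075 (109, 110 and 112 against 56.3, 59.3 and 54.8 TPM), chr7:61488462-61488860 (74.6, 76.9 and 75.5 against 39.4, 39.6 and 38.3 TPM) and chr8:110516127-110516533 (112, 118 and 116 against 63.6, 64.3 and 58.6 TPM). Their log2 differences were -0.80, -0.95, -0.93 and -0.88, with limma adjusted p of 0.27, 0.14, 0.15 and 0.19. The values within a colour lay close together at each of these loci, and the size of the difference varied between them.

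The other 3 loci named RPS15A overlapped in TPM. At chr5:191888952-191889368 the named transcript had 99.2, 0.586 and 111 TPM in Grey and 25.8, 29.2 and 0.319 TPM in Black skin, so that 1 library of each colour was near 0. On the span of that locus, coverage was 21.4, 20.9 and 24.3 bases per aligned megabase in Grey and 5.40, 6.46 and 5.78 in Black skin, without overlap (log2 difference -1.90, limma adjusted p = 0.063). At chr3:327095767-327096161, a RefSeq pseudogene, span coverage was 5.17, 4.53 and 6.09 against 0.801, 0.961 and 1.04, also without overlap. The last, chr1:192771174-192771570, was low at 0.935 to 1.16 in Grey and 0.803 to 1.15 in Black skin, and overlapped. By span coverage 8 of 9 loci were therefore lower in all Black libraries, against 2.81% of the tested copies and 1.61% of all loci in bases per aligned megabase, but no copy of any gene passed the limma threshold on that scale, the smallest adjusted p among these 9 being 0.063.

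The copies of RPS15A and the spliced gene moved in opposite directions between colours. Coverage on the copies was 149, 145 and 160 bases per aligned megabase in Grey and 65.0, 71.8 and 64.9 in Black skin. Coverage on the spliced gene was 408, 390 and 456 in Grey and 577, 650 and 571 in Black skin, and was higher in all Black libraries (in TPM, log2 difference 0.52, SE 0.14, limma adjusted p = 1.00). The share of copies in TPM was 25.5% ± 0.988 in Grey and 9.71% ± 0.457 in Black skin (SD, n = 3 each; exact permutation p = 0.1, the smallest possible). The loci without overlap on their spans lay on chromosomes 1, 3, 5, 6, 7 and 8. How far they shared reads with each other or with the spliced gene was not tested.

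Copies and spliced gene also ran in opposite directions between some animals of one colour. For RPL34, a large-subunit protein, the copy at chr5:15796618-15796957 had 1401, 1296 and 817 TPM in Grey and 87.1, 872 and 288 TPM in Black skin. The copy at chr1:130286504-130286843 ran the other way, with 56.4, 41.7 and 99.0 TPM in Grey and 662, 474 and 81.6 TPM in Black skin. Neither passed the test (adjusted p = 1.00 for both). Span coverage over all 9 RPL34 copies was 362, 313 and 328 bases per aligned megabase in Grey and 176, 338 and 297 in Black skin, lowest in Black 1. That of the spliced gene was 57.9, 54.2 and 78.7 in Grey and 283, 151 and 15.8 in Black skin, highest in Black 1. From Black 2 to Black 3 both fell. Black 1 is the library with muscle markers, and their part in its values was not tested.

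RPL11, a large-subunit protein that also binds the p53 regulator MDM2, ran in opposite directions in Black 1 and Black 2. Its 4 copies had a span coverage of 185, 191 and 182 bases per aligned megabase in Grey and 330, 62.9 and 229 in Black skin, and its spliced gene 404, 417 and 453 in Grey and 292, 738 and 417 in Black skin. Black 2 was lowest in copies and highest in spliced transcripts, and Black 1 was highest in copies and lowest in spliced transcripts. The loci at chr4:148412577-148413132 and chr2:207182950-207183516 both had this order, with 537, 558 and 523 TPM in Grey and 1001, 146 and 684 TPM in Black skin at the former. RPS21, a small-subunit protein, had a lower coverage of copies in Grey 3 and Black 3 (110 and 103) than in the other 4 libraries (171 to 174).

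When copies and spliced gene were added, the spread between animals was smaller than in either alone for these 4 genes, as it was for 29 of the 64 genes with both kinds, and for 21 of the 64 it was larger than in the copies. RPL34, RPL11 and RPS21 were shown because the 2 parts ran in opposite directions in some libraries, so their smaller spread restates that. RPS15A was chosen from earlier results of these data. Its 2 parts moved in opposite directions between colours, so its smaller spread restates that too. The coefficient of variation over 6 libraries was 42.5% for the copies of RPS15A, 20.7% for its spliced gene and 10.8% for the sum. It was 21.7%, 91.0% and 15.5% for RPL34, 43.9%, 33.1% and 11.8% for RPL11, and 22.9%, 64.3% and 13.2% for RPS21. The sum for RPS15A was 558, 535 and 616 bases per aligned megabase in Grey and 642, 722 and 636 in Black skin, higher in all Black libraries (570 ± 41.5 against 667 ± 47.9, SD, n = 3 each; exact permutation p = 0.1, the smallest possible). For RPL34, RPL11 and RPS21 the exact permutation p of the sum was 0.8, 0.2 and 0.4. Whether reads were moved between a copy and its spliced gene was not tested.

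**Figure D4:**
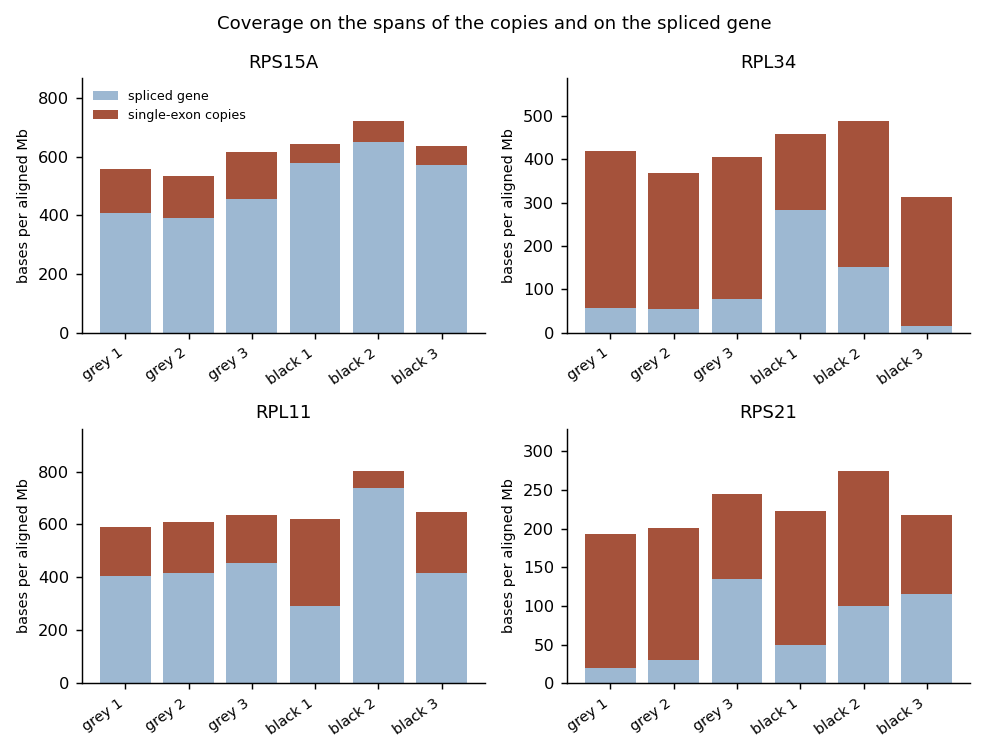
Coverage in bases per aligned megabase on the spliced gene (lower bar) and on the spans of all single-exon copies (upper bar) in each library, for RPS15A, RPL34, RPL11 and RPS21. For RPS15A the upper bar is shorter and the lower bar taller in all 3 Black libraries, while for RPL34 and RPL11 single libraries (Black 1, Black 2) have the short upper and tall lower bar.

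Some copies of one gene had nearly equal coverage, and whether they shared reads was not tested. Among 1749 pairs of loci of the same gene, 13 pairs from 8 genes had coverage within 5% of each other in every library, involving 22 loci. The RPL36 copies at chr5:253983124-253983441, chr7:150741074-150741391 and chr8:120885360-120885677 formed 3 such pairs, with mean levels of 129, 129 and 130 TPM. RPL17 copies formed 2 pairs, chr1:148287923-148288423 with chr5:110784003-110784503 (226 and 225 TPM) and chr3:152464080-152464580 with chrX:40336349-40336849 (323 and 326 TPM). The RPS29 copies at chr5:61897538-61897709 and chr8:195044626-195044801 were at 453 and 441 TPM, and no library separated them by more than 2.83%.

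RPL17, a large-subunit protein at the exit of the peptide tunnel, supplied much of what rose without overlap. All Black libraries exceeded all Grey ones at 36 of 356 tested copies, 10.1% against 3.87% of all loci, and all were below at 8, 2.25% against 2.23% of all loci. Of the 36 loci, 13 were RPL17 copies (of 17 tested) and 4 were RPL22 copies (of 4), while 6 of the 8 were RPS15A copies. Without RPL17 the share was 6.78%. On their spans, 43 of the 356 copies were higher in all Black libraries, where 4.56% of all loci were in bases per aligned megabase. The 18 RPL17 copies summed to 1805, 1859 and 1980 TPM in Grey and 2159, 2891 and 2597 TPM in Black skin, without overlap and with Black 2 highest. No RPL17 copy passed the test, and how far the 13 loci shared reads was not tested.

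At many copies the named transcript varied far more between animals than the coverage on its span. Of 286 copies with a mean of at least 10 TPM, 75 differed at least 10-fold between the highest and the lowest library by the coverage of the named transcript. On the same spans, coverage from every transcript of the strand varied by less than 2-fold for 49 of the 75, by 2-fold to 10-fold for 11 and by 10-fold or more for 15. In each library, between 37 and 53 copies had over 10% of their span coverage in transcripts that did not carry the name.

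**Figure D5:**
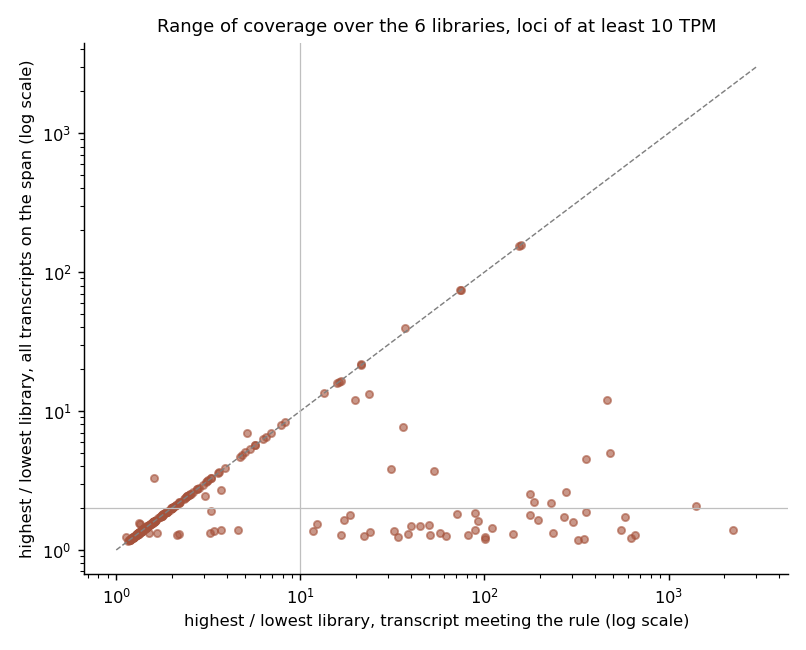
Ratio of the highest to the lowest of 6 libraries for the coverage of the named transcript (horizontal, log axis) and of all transcripts on its span and strand (vertical, log axis), for 273 copies of at least 10 TPM with a value above 0 in every library. Points on the dashed line have equal ratios, and the points at the lower right, past the vertical line at 10 and under the horizontal line at 2, varied in the named transcript alone.

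The 5 largest fold changes among the tested copies were of this kind. RPL31-PS12 at chr2:243718544-243718987 had 299 and 293 TPM in Grey 1 and Grey 2 and 0.208 to 2.22 TPM in the other 4 libraries (log2 difference -4.42, SE 2.15, limma adjusted p = 1.00), with a span coverage of 40.9 to 85.3 bases per aligned megabase in all 6. RPS8A at chr2:341105129-341105755 had 321, 1.92 and 2.77 TPM in Grey and 202, 219 and 197 TPM in Black skin (3.76, SE 1.78). Its span coverage ran the other way, with 104, 114 and 85.3 in Grey and 63.6, 73.0 and 63.6 in Black skin. RPL36 at chr4:44908468-44908785, RPS19 at chr1:45575918-45576391 and RPS15 at chr3:367537318-367537755 had log2 differences of -3.49, -3.43 and 3.41 and span coverages that varied 1.31-fold, 1.32-fold and 1.45-fold over the 6 libraries. Leaving out 1 library made each of the 5 pass the test: Grey 1 for RPS19 (adjusted p = 0.0013) and RPS8A (0.0013), Grey 3 for RPS15 (0.0030) and RPL31-PS12 (0.0050), and Grey 2 for RPL36 (0.013).

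The same held for the next loci by p. RPL7 at chr4:223721639-223722306 had 9.0, 7.43 and 10.4 TPM in Grey and 65.5, 81.1 and 12.2 TPM in Black skin (2.08, adjusted p = 1.00, and 0.027 without Black 3), with a span coverage of 20.9 to 21.7 in Grey and 22.0 to 28.7 in Black skin. RPS3A at chr2:162556802-162557614 had 2.74, 1.32 and 4.36 TPM in Grey and 30.9, 26.1 and 4.0 TPM in Black skin, with spans between 37.0 and 49.4. RPS15 at chr6:161456450-161456888 was an exception, with its named transcript as the only source of coverage. It had 16.1, 14.4 and 12.5 TPM in Grey and 8.01, 10.9 and 7.68 TPM in Black skin, without overlap (-0.65, limma adjusted p = 1.00).

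The choice of measure could turn the direction for a whole gene. RPS19, a small-subunit protein whose loss causes Diamond-Blackfan anaemia in humans, had 11 copies that summed to 1592, 1537 and 1396 TPM in Grey and 816, 1046 and 735 TPM in Black skin, lower in all Black libraries. On the spans of the same copies coverage was 533, 551 and 593 bases per aligned megabase in Grey and 603, 706 and 594 in Black skin. The mean was higher in Black skin (634 ± 62.0 against 559 ± 31.0, SD, n = 3 each). All Black libraries were above all Grey ones, but Black 3 (593.6) and Grey 3 (593.0) were nearly equal.

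At 15 copies the range on the span was also at least 10-fold, so these loci differed between animals by both measures. The most uneven was the copy of RPS27L, a p53-inducible paralogue of RPS27, at chrX:21776067-21776327. It had 619, 14.1 and 12.0 TPM in Grey and 14.6, 1477 and 9.67 TPM in Black skin, high in Grey 1 and Black 2 and low in the other 4. Its span coverage was 83.4, 2.31 and 1.64 against 2.16, 204 and 1.30 bases per aligned megabase. RPL34 at chr8:184033446-184033785 was at 0.486 in Black 1 and at 17.4 to 36.1 elsewhere on its span, and RPS19 at chr3:8964799-8965254 was at 28.0, 32.1 and 36.3 in Grey 1, Grey 2 and Black 2 and at 0.642 or less in the rest. The named RPS19 transcript had 143 and 150 TPM in Grey 2 and Black 2 but 1.05 TPM in Grey 1. At each of these 3 loci the groups overlapped.

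No spliced ribosomal protein gene passed the threshold in the same fit. Under the reference names 15 genes were tested and 0 passed in either direction, and by RefSeq symbol 65 genes were tested and 0 passed (limma, adjusted p under 0.05), with 3 higher and 1 lower at unadjusted p under 0.05 (1.33% and 0.986% of all loci). Of the 65, 58 were higher in Black skin by mean log2 level, a larger part than the 56.0% of all loci and the 67.1% of tested copies. All Black libraries exceeded all Grey ones at 5 of the 65 and were below them at 1. Over all loci these orders held at 3.87% and 2.23%. The median log2 difference was 0.12 against 0.04 over all loci. The smallest p-values belonged to RPS15A (0.52, given above), RPL27A (0.65) and RPL6, which has no single-exon copy (1926, 1321 and 1660 TPM in Grey and 845, 649 and 165 TPM in Black skin, -1.84), each with a limma adjusted p of 1.00.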

How the data were processed

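Per the submitters' processing notes and the study's methods, the authors cleaned reads with Trim Galore 0.6.10, aligned them to the assembly mTriVul1.pri using HISAT2 2.2.1, and assembled each library alone in StringTie 2.2.0 with a guide annotation. The deposited values are coverage, FPKM and TPM per transcript, not counts. How reads with several matches were divided is not given in the sources used here. Reference names came from the guide and include names of other species; RefSeq genes were matched by span.

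Copies were merged by position and strand, and a transcript missing from a library was set to 0. Loci averaging 1 TPM or more were compared by limma 3.58.1 (R 4.3.3, trend) on log2(TPM + 1), which understates changes of low loci, with Benjamini-Hochberg adjustment over all loci. The script was tested on simulated data. Sums and shares were compared by exact 2-sided permutation. P-values measure the spread between 3 animals per colour. Span coverage summed every transcript of the strand over a locus, per aligned megabase, with aligned bases estimated from the coverage and FPKM of the transcripts. Spliced genes by RefSeq symbol were multi-exon transcripts with at least 80% of their span inside the gene or 50% of the joint span shared, a choice made after seeing how few bore a name. Alternatives were other pseudocounts, filters, scalings, a replicate block and leaving out each library. Named loci were the 10 highest, those called, the 10 of smallest p, the 5 of largest change and all RPS15A loci; named genes were the 10 with most copy TPM, RPS15A and the 3 highest and lowest shares; others were named after their values were seen. The members and lists were chosen with earlier results of these data known.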

Additional observations from a re-analysis of the deposited data

How the results depend on the processing

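No copy was called higher in Black skin and 3 were called lower. Leaving out 1 library at a time gave 0 to 1 higher (1 without Grey 1, Grey 3, Black 1 or Black 3) and 2 to 4 lower. Of the other alternatives, the replicate block gave 0 lower calls, bases of coverage per aligned megabase gave 0, and span coverage from every transcript of the strand gave 0, whereas other pseudocounts, filters, scaling, trend and inclusion of all single-exon transcripts gave 2 to 3; the cause was not tested. Under the block the adjusted p of RPS15A at chr5:24038414-24038812 was 0.25, and over its 17 alternatives it ranged from 0.0049 to 0.25. Closing gaps under 50 nt, 1 of the 17, was identical to the main fit, since 0 named multi-exon transcripts had only such gaps. Replicate numbers did not pair the animals: deviations from the group means of libraries with the same number correlated at 0.00, 0.01 and -0.06. By RefSeq symbol and by name, 0 spliced genes were called under the pseudocounts, filters, block, scalings, trend and left-out libraries tried; the alternatives that concern only copies were not run for them. The difference in the share of copies stayed between -2.07 and 0.04 percentage points. Groups of 3 libraries limit every test, and reads that match several loci limit every value of a single copy.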
